A study of Mus musculus with 6 samples.

Results

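The regions described here are the open-chromatin peaks of mouse chromosomes 10 and 4 in long-term haematopoietic stem cells of aged and young mice. They are the distinct peak intervals of 6 peak lists that lie on either chromosome. These 2 chromosomes were picked because their share of all peaks had separated the ages without overlap. Of 1088668 distinct peaks on chromosomes 1 to 19, summed over the 6 lists, 58336 lay on chromosome 10 and 67647 on chromosome 4, together 125983. The choice rests on the measured peak shares, so the shares and their 5 Mb bins are given as a description without a test.

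The lists come from ATAC-seq, in which a transposase inserts sequencing adapters into accessible DNA and a peak is a stretch with more insertions than its surroundings. Cells of 3 aged and 3 young C57BL/6 samples were taken from bone marrow, sorted as lineage-negative, cKit-positive, Sca1-positive, Flk2-negative and Cd34-negative, and kept overnight at 3% oxygen in HBSS with 10% FBS. Both groups share that strain, sort and culture. The ages in weeks and the sexes are not among the labels. The design text speaks of 3 mice per age but ties no sample to 1 mouse, so the spread between samples may be technical. The titles carry an unexplained number before "exp" (10000, 2500 and 5000 in aged samples 1 to 3, a number below 2500 in young sample 1, and 2500 and 5000 in young samples 2 and 3) and another after it (2, 5 and 3 in both ages).

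Most open regions of a haematopoietic stem cell are of 2 kinds. Promoters of active genes are rich in CpG and open in most cell types, while distal elements such as enhancers are open in fewer types and can lie far from the gene they act on. Chromosome 4 carries Tal1 and Mllt3, regulators of stem cell formation and self-renewal. Chromosome 10 carries Myb, a transcription factor of progenitor growth, Kitl, the ligand of Kit, and Tcf3, which encodes the E proteins E12 and E47.

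Among promoters of RefSeq genes, those that a peak touched in all 6 lists, or in all lists of 1 age and none of the other, are the ones that a reader can compare by sequence. In the windows from 250 bases before to 50 bases after each start, 305 of 1649 on chromosome 10 and 383 of 2053 on chromosome 4 were touched in all 6 lists (18.5% and 18.7%), against 17.97% on the other autosomes. Only 2 windows of chromosome 10 were touched in the 3 aged and no young list (Pde7b and Sh3rf3), and 1 of chromosome 4 in the 3 young and no aged list (Edn2). Over chromosomes 1 to 19 the shares of such windows were 0.0382% for aged and 0.0478% for young lists.

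The 250 bases before the start of these 3 genes follow, with those of Myb, and of Vezt and Casp8ap2, whose ends were the strongest called in all 6 lists in their bins. They were picked after their values were seen. Sequences are from RefSeq (GRCm38.p6, the mm10 build), 5′ to 3′ on the strand of the gene. Capitals mark matches, on either strand, to 7 short motifs, some of which can overlap each other. The share of the 32851 RefSeq promoters in the table whose 250 bases hold each is given beside it. For GATA factors the letters searched were GATAAG, held by 6.55% of promoters. For ETS factors they were CCGGAA, held by 12.0%. RUNX factors were searched as TGTGGT, held by 14.0%, and the AP-1 complex as TGACTCA, held by 4.46%. The CCAAT box itself was held by 33.8%, the GC box, searched as GGGCGG, by 32.7%, and the TATA box, searched as TATAAA, by 12.4%.
Pde7b: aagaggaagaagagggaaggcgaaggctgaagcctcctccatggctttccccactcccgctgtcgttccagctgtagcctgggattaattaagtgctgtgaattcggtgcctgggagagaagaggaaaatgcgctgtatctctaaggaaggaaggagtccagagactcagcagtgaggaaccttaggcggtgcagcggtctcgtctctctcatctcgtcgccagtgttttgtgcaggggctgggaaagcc
Sh3rf3: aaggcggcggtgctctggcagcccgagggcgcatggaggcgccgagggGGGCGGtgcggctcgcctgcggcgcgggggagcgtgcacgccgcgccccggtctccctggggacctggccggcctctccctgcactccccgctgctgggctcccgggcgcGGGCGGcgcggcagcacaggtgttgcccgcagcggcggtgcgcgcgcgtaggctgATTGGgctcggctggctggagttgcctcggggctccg
Edn2: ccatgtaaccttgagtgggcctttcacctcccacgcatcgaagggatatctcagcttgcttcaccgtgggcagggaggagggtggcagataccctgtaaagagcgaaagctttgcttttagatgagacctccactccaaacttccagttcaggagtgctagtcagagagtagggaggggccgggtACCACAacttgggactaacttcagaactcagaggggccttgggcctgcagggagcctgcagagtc
Myb: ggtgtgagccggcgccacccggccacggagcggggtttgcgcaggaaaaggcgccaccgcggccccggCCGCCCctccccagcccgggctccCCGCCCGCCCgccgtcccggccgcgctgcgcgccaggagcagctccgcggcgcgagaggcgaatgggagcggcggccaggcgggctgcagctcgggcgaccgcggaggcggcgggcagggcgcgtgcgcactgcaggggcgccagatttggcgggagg
Vezt: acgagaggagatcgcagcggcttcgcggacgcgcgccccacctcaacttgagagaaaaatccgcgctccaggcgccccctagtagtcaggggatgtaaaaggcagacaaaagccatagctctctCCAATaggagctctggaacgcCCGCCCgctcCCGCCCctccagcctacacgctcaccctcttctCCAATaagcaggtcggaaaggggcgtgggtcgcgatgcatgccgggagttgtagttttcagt
Casp8ap2: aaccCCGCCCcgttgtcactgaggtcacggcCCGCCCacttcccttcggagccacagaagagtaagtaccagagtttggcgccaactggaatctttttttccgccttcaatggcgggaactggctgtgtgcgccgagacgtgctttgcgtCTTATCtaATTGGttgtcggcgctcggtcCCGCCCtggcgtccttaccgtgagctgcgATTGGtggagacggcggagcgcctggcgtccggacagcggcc

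Pde7b, a phosphodiesterase that breaks down cyclic AMP, lies with these 250 bases at chr10:20548329-20548578 (minus strand, in the 5 Mb bin from 20 to 25 Mb) and holds none of the 7 motifs. A peak touched its window at the 71.6, 84.8 and 69.1 percentile of peak strength in the 3 aged lists and in no young list. Percentiles are ranks of the authors' -log10 p within a list, where 100 is the strongest peak. Peaks with equal -log10 p share 1 mean rank, so some values recur. The same percentile need not mean the same strength in 2 lists. Peaks with -log10 q of at least 1.3 made 20.2% of young list 1 but 70.2% of young list 3. Sh3rf3, a RING-finger ubiquitin ligase with SH3 domains, lies at chr10:58813109-58813358 (plus strand), with 2 GC boxes and 1 CCAAT box, and was called at percentiles 94.2, 38.4 and 69.1 in the aged lists alone. Edn2, which encodes the peptide endothelin 2, lies at chr4:120160956-120161205 (plus strand), with 1 RUNX match, and was called at percentiles 82.7, 22.3 and 78.0 in the young lists alone. These age-only calls hold for the short promoter window only. By gene ends within 1 kb, and by peaks merged over the lists, none of these genes was called at 1 age alone.

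The other 3 promoters were open in lists of both ages. Myb (chr10:21160985-21161234, minus strand) holds 3 GC boxes, 2 of them overlapping in 1 run, and was called at percentiles 94.9, 90.4 and 51.4 in the aged lists and 93.1 and 91.4 in young lists 1 and 3, but not in young list 2. Vezt, an adherens-junction protein (chr10:94035800-94036049, minus strand), holds 2 CCAAT and 2 GC boxes and stood between the 98.0 and 99.7 percentile in all 6 lists. Casp8ap2, a factor of histone RNA processing and death signalling (chr4:32615220-32615469, plus strand), holds 1 GATA match, 2 CCAAT and 3 GC boxes and stood between the 97.6 and 99.8 percentile. Windows of chromosome 10 called in all 6 lists had a median of 64.7% G and C and 25 CpG dinucleotides, and windows called in none 46.7% and 3. On chromosome 4 the medians were 64.0% and 24 against 48.3% and 4.

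The 6 lists differed in size and strength within each age. They held from 107804 to 252914 distinct autosomal peaks, and the number of reads behind them was not given. Gene-end peaks, defined as those within 1 kb of either end of a protein-coding gene, made 8.10%, 12.8% and 10.0% of the aged and 7.33%, 6.31% and 14.5% of the young lists. Peaks with -log10 q of at least 1.3, called strong here, made 38.7%, 68.3% and 37.9% of the aged and 20.2%, 42.4% and 70.2% of the young lists. Aged list 2 and young list 3 were thus the lists richest in strong and gene-end peaks. The ends of Kit, Procr, Hlf, Meis1 and Fgd5 were called in all 6 lists, 5 of 10 stem cell markers. All 3 megakaryocyte markers were called in all 6 lists, and so was Mpo, 1 of 5 myeloid markers. The genes of the markers that the sort selects against were open too: the ends of Cd34 were called in 5 lists, from the 61.5 to the 95.5 percentile, and those of Flt3, which encodes Flk2, in 4 lists, from 92.1 to 98.7. None of 4 B cell, 4 T and NK cell or 4 erythroid markers was, although each of these but Hba-a1 was called in at least 1 list.

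Chromosome 10 held 5.40%, 5.59% and 5.90% of the autosomal peaks of the aged lists and 5.17%, 5.40% and 4.70% of those of the young lists. Aged lists had a mean of 5.63% ± 0.253 and young lists of 5.09% ± 0.359 (SD, n = 3 per age), a difference of 0.542 percentage points. Young list 3 was the lowest, and aged list 1 and young list 2 touched, at 5.403% and 5.404%. Their 95% Wilson intervals, which cover counting error of peaks only, were 5.31% to 5.49% and 5.32% to 5.50%. With chromosome X in the denominator the 2 ages did not overlap, at 5.18%, 5.42% and 5.70% against 4.95%, 5.14% and 4.58%. Among samples with the same number after "exp", aged exceeded young by 0.234, 0.186 and 1.21 percentage points.

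Chromosome 4 held 6.02%, 6.03% and 6.03% of the peaks of the aged lists and 6.26%, 6.23% and 6.93% of those of the young lists. The aged lists lay within a narrow band and below every young list, and young list 3 stood far above the other young lists. The means were 6.02% ± 0.00804 and 6.47% ± 0.395 (SD, n = 3 per age), a difference of -0.449 percentage points. Among samples with the same number after "exp", the differences were -0.241, -0.204 and -0.901. Young list 3 weighed on both chromosomes. Without it the differences were 0.346 on chromosome 10, where the ages overlapped, and -0.221 on chromosome 4.

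Of the 19 autosomes, chromosome 4 alone did not overlap on the autosomal denominator (5.26%; 0% with aged higher). With chromosome X counted, neither chromosome 4 nor chromosome 10 overlapped (10.5%). Just outside stood chromosome 8, where aged lists held 5.32%, 5.24% and 5.20% and young lists 5.39%, 5.30% and 5.40%. The differences of chromosomes 10 and 4 were the largest of the 19 in size, and chromosome 7 came next at 0.263.

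**Figure D1:**
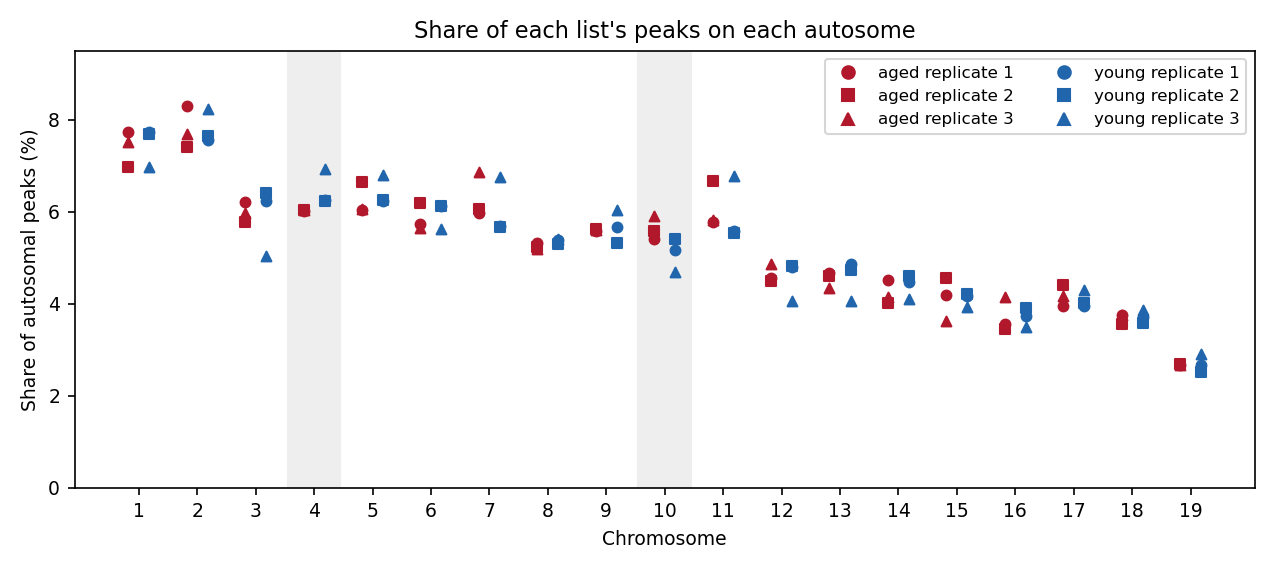
Share of each list's autosomal peaks (percent, vertical axis) on each autosome (horizontal axis), 1 point per sample, with chromosomes 10 and 4 shaded. Aged lists sit between 5.40% and 5.90% on chromosome 10 and near 6.02% on chromosome 4, and young list 3 is the extreme list on both.

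Peaks away from gene ends made 85.5% to 93.7% of the lists, so most of any difference in peak number falls among them, and the shares are therefore given within each class. On chromosome 10 the share among those peaks was 5.43%, 5.64% and 5.95% in aged lists and 5.19%, 5.41% and 4.66% in young lists, without overlap, a difference of 0.587. Among gene-end peaks the difference had the same direction, at 0.223, and the ages overlapped. Strong peaks away from gene ends stood at 5.46%, 5.67% and 6.03% against 5.34%, 5.46% and 5.04%, and weak ones at 5.42%, 5.57% and 5.91% against 5.16%, 5.38% and 3.90%. In both of these classes the aged lists were all higher, by 0.444 and 0.820 percentage points.

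On chromosome 4 the gene-end share hardly differed, at 6.71%, 6.37% and 6.59% in aged lists against 6.58%, 6.53% and 6.69% in young lists (difference -0.0419). Away from gene ends it was 5.95%, 5.98% and 5.97% against 6.23%, 6.21% and 6.97%, a difference of -0.505. Strong peaks of this kind stood at 6.18%, 6.17% and 5.95% in aged lists against 6.27%, 6.19% and 6.88% in young lists. Weak ones stood at 5.83%, 5.62% and 5.97% against 6.22%, 6.23% and 7.16%. All young lists were higher in both classes, by 0.347 and 0.730 percentage points in size, though for strong peaks aged list 1 and young list 2 were close.

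Each difference was split into a part from the mix of the 4 classes in the lists and a part from the shares within classes. This split is a description of the same shares and was not tested. As a mean over all 9 combinations of 1 aged with 1 young list, the mix gave -0.0331 of the 0.542 on chromosome 10 and 0.0417 against the -0.449 on chromosome 4. The shares within classes gave the remaining 0.575 and -0.490.

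**Figure D2:**
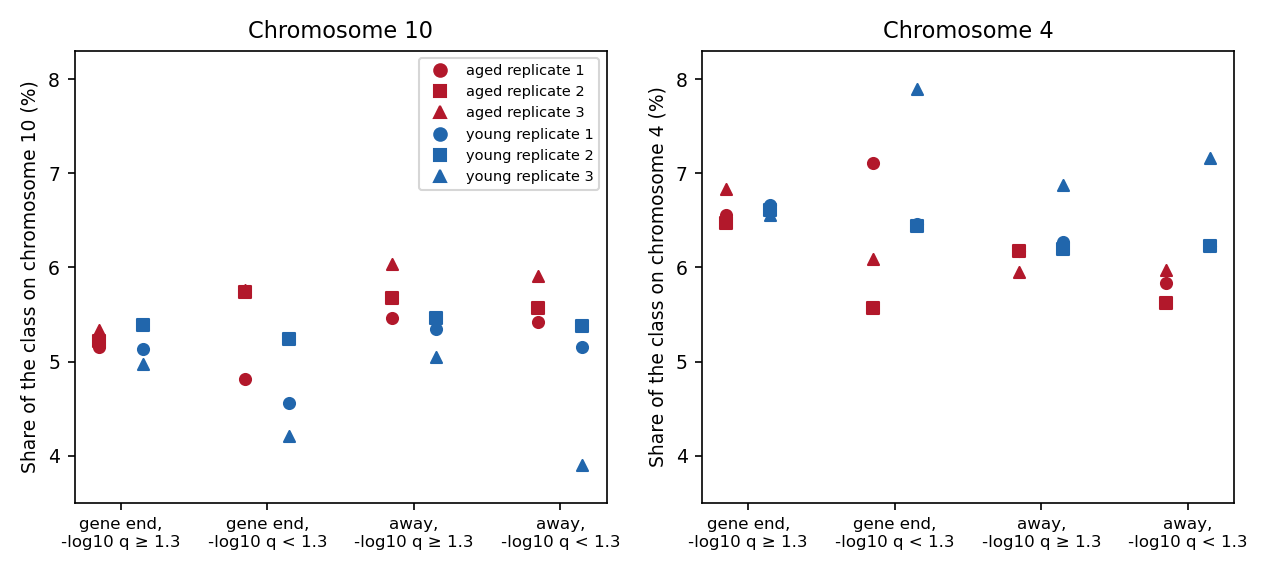
Share of the peaks of each class (percent, vertical axis, not starting at 0) that lay on chromosome 10 or 4, for gene-end and other peaks split at -log10 q of 1.3, 1 point per sample. The ages separate among the peaks away from gene ends and overlap among gene-end peaks.

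Most regions of both chromosomes were seen in 1 list only. When overlapping peaks of the 6 lists were merged, chromosome 10 had 45148 regions, of which 84.8% were in 1 list and 494 in all 6, and chromosome 4 had 51959, of which 84.7% were in 1 list and 621 in all 6. The other autosomes had 85.0% in 1 list. On chromosome 4, single-list peaks gave -0.594 percentage points, more than the whole difference of -0.449, and peaks of regions in at least 2 lists gave 0.145. This split also depends on how many single-list peaks each list holds. Chromosome 4 made 5.87%, 5.65% and 5.91% of the single-list peaks of the aged lists and 6.25%, 6.25% and 7.14% of those of the young lists. Among peaks of regions seen in at least 2 lists its share differed by -0.0865 and the ages overlapped.

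On chromosome 10, single-list peaks differed more in share than shared ones. The chromosome made 5.39%, 5.66% and 6.01% of the single-list peaks of the aged lists and 5.07%, 5.43% and 4.16% of those of the young lists, a difference of 0.802 with the ages overlapping. Peaks of regions in at least 2 lists gave 0.291 of its 0.542 percentage points (53.7%), and single-list peaks 0.251 (46.3%), a split that also depends on how many shared peaks each list holds. The share of chromosome 10 among the shared peaks was 5.42%, 5.53% and 5.68% in aged lists against 5.41%, 5.32% and 5.12% in young lists, without overlap and 0.261 apart in mean, with aged list 1 and young list 1 nearly equal.

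In 5 Mb bins the difference was spread along both chromosomes. Of the 27 bins of chromosome 10, 24 had a higher mean share in aged lists, and of the 32 bins of chromosome 4, 24 had a higher mean share in young lists. On the other autosomes 49.0% of 443 bins were higher in aged and 51.0% in young lists. Bins whose 3 aged and 3 young shares did not overlap numbered 4 on chromosome 10, all higher in aged lists, and 3 on chromosome 4, all higher in young lists. Over the 502 bins of all autosomes the background was 1.79% in each direction. Since the chromosomes were chosen by the same shares, nothing is read from that excess. Without aged list 1 the counts were 7 and 5, and without young list 3 they were 9 and 12. Leaving out any other list gave 4 to 5 and 3 to 4. Fewer lists separate more easily, and no matching share over all autosomal bins is given, so nothing is read from these rises.

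The 4 bins of chromosome 10 together gave 0.147 of the 0.542 percentage points (27.1%), and the 3 of chromosome 4 gave -0.115 of the -0.449 (25.6%). Adding bins from the largest contribution down, 22 bins were needed to reach the chromosome 10 difference and 15 to reach that of chromosome 4. The largest single contributions came from bins whose ages overlapped. These were 75 to 80 Mb of chromosome 10 (0.0555) and 35 to 40 Mb of chromosome 4 (-0.0540).

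**Figure D3:**
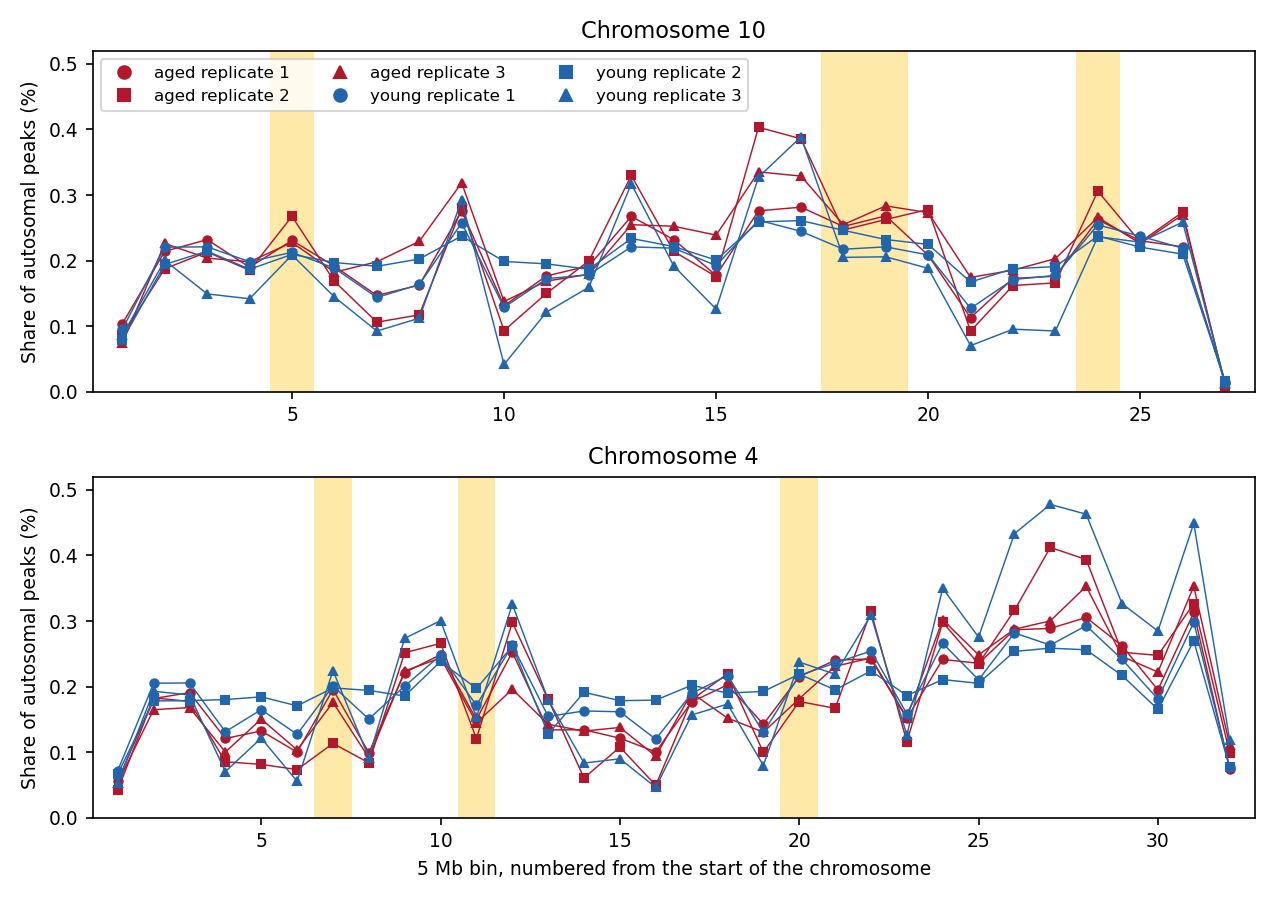
Share of autosomal peaks (percent, vertical axis) in each 5 Mb bin along chromosomes 10 and 4 (bin number from the chromosome start, horizontal axis), 1 line per sample. Bands mark the 4 and 3 bins where the ages do not overlap, and the remaining bins show aged and young lines crossing.

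The widest separation on chromosome 10 was at 90 to 95 Mb. That bin, with 24 coding genes among them the synaptic scaffold gene Anks1b and Vezt, held 0.268%, 0.263% and 0.284% of the aged and 0.221%, 0.232% and 0.206% of the young lists' peaks (630, 329 and 356 against 559, 563 and 222 peaks). The neighbouring 85 to 90 Mb, with the chaperone gene Hsp90b1, was the narrowest case, at 0.252%, 0.247% and 0.255% against 0.217%, 0.246% and 0.205%. Just outside, 65 to 70 Mb overlapped, at 0.232%, 0.214% and 0.252% against 0.219%, 0.222% and 0.192%.

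The remaining bins of chromosome 10 without overlap were 20 to 25 Mb, which holds Myb, and 115 to 120 Mb, which holds Mdm2, Ifng and the lysozyme genes. The former held 0.231%, 0.268% and 0.228% in aged lists against 0.213%, 0.210% and 0.209% in young lists. The latter held 0.262%, 0.306% and 0.266% against 0.255%, 0.238% and 0.237%. In both, aged list 2 was the highest. Peaks away from gene ends made 85.6% to 97.0% of the difference in these 4 bins, near the 85.5% to 93.7% that such peaks make of whole lists.

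On chromosome 4, the bin 30 to 35 Mb, with Bach2 and Casp8ap2, held 0.195%, 0.113% and 0.176% in aged lists against 0.201%, 0.198% and 0.224% in young lists. The bin 50 to 55 Mb, with the cholesterol transporter gene Abca1, held 0.150%, 0.121% and 0.145% against 0.172%, 0.197% and 0.153%. The bin 95 to 100 Mb, with Jun and Nfia, held 0.215%, 0.177% and 0.182% against 0.217%, 0.219% and 0.237%, and was the narrowest case. Aged list 2 was the lowest in all 3 bins. Just outside, the first 5 Mb overlapped, at 0.0566%, 0.0423% and 0.0534% against 0.0720%, 0.0668% and 0.0529%. Peaks away from gene ends made 98.2% to 105% of the difference in the 3 bins, where such peaks make 85.5% to 93.7% of whole lists.

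The young lists did not exceed the aged lists at the same places on chromosome 4. Young list 1 lay above all aged lists in 14 bins and young list 2 in 14, of which 12 were shared (85.7% of each). Young list 3 lay above them in 16 bins, of which 4 were shared with young list 1 (25% of its own and 28.6% of the other's) and 3 with young list 2 (18.75% and 21.4%). The bins of young lists 1 and 2 held a median of 15.5 and 15 coding genes, and those of young list 3 a median of 57.

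Grouped by gene content, the 10 bins of chromosome 4 with 0 to 16 coding genes held 1.34%, 1.02% and 1.303% of the peaks of the aged lists and 1.55%, 1.87% and 1.05% of those of the young lists. The 11 bins with 55 to 216 genes held 2.84%, 3.31% and 3.02% against 2.74%, 2.49% and 3.94%. Young lists 1 and 2 were the highest in the gene-poor bins and the lowest in the gene-rich ones, and young list 3 was the highest in the gene-rich bins and, next to aged list 2, the lowest in the gene-poor ones. This goes with the lists' gene-end shares, which were 7.33% and 6.31% in young lists 1 and 2 and 14.5% in young list 3, and its part in the result was not tested.

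On chromosome 10 the aged lists lay above all young lists in 8, 9 and 15 bins, and young list 3 lay below all aged lists in 18. The 5 bins with 32 to 54 genes held 1.29%, 1.43% and 1.32% in aged lists against 1.16%, 1.16% and 1.26% in young lists, without overlap. The other 3 gene classes overlapped.

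A share given by gene content alone was computed from the mean bin share of each gene class on the other autosomes of the same list. Chromosome 10 exceeded it by 0.237, 0.657 and 0.801 percentage points in aged lists and by -0.0648, 0.140 and -0.151 in young lists. Chromosome 4 differed from it by -0.298, -0.362 and -0.338 in aged lists and by -0.0417, -0.140 and 0.569 in young lists. The ages did not overlap on either chromosome after this step, with differences of 0.590 and -0.462.

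**Figure D4:**
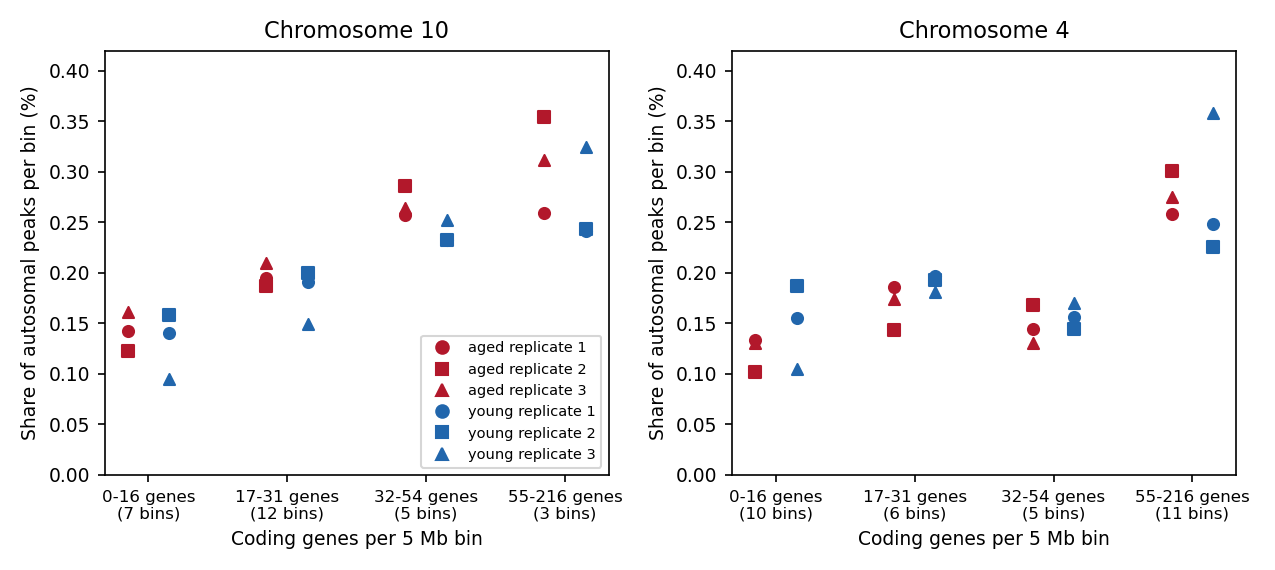
Share of autosomal peaks per bin (percent, vertical axis) in each gene-content class on chromosomes 10 and 4, 1 point per sample. On chromosome 4 young lists 1 and 2 are highest in gene-poor bins, and young list 3 is highest in gene-rich bins.

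Gene ends themselves were called about as often in both ages. Of the 1001 coding genes of chromosome 10, 376 (37.6%) had an end called in all 6 lists, and of the 1328 of chromosome 4, 483 (36.4%), against 35.8% on the other autosomes. On chromosome 10, 19.9% of genes were called in more aged than young lists and 19.8% in more young lists. On chromosome 4 the figures were 19.1% and 19.95%, and on the other autosomes 19.8% and 20.4%.

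Blood stem cell and lineage regulators were often open in all 6 lists, more so on chromosome 10 than on chromosome 4. Of 33 listed on chromosome 10, 22 had an end called in all 6 lists, 5 in more aged and 3 in more young lists. Tcf3 stood between the 99.4 and 99.8 percentile. The 5 with more aged lists were Myb, Kitl, the repressor gene Prdm1, the DNA demethylase gene Tet1 and the cytokine-signal inhibitor gene Socs2, and each missed only young list 2. Those with more young lists were Egr2, Cd24a and Sgk1. Young list 2 called the ends of 24 of the 33 genes, the fewest of the 6 lists.

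Of 32 regulators placed on chromosome 4, 17 were called in all 6 lists, 5 in more aged and 8 in more young lists. Klf4, a reprogramming and monocyte factor, stood between the 96.3 and 99.6 percentile, and Tal1 between the 73.1 and 97.8. The 5 with more aged lists were Mllt3, E2f2, Csf3r, Cdkn2c and Lin28a. Prdm16 and Lck were among the 8 with more young lists. Prdm16, a stem cell maintenance factor, was called in aged lists 1 and 2 at 88.6 and 81.9 and in the young lists at 80.4, 55.6 and 75.2. Lck, a T cell kinase gene, was called in aged list 1 at 58.9 and in the young lists at 81.7, 2.0 and 15.7. Aged list 3 called 21 and young list 2 called 22 of the 32 genes, the fewest of their ages.

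Genes of mature blood cells were open in fewer lists than the regulators. Of 14 on chromosome 10, 2 were called in all 6 lists, 1 in more aged and 8 in more young lists, most of these in 1 or 2 young lists. The neutrophil elastase gene Elane was called in young list 1 alone at 41.8, and the perforin gene Prf1 in young lists 1 and 2 at 65.0 and 61.5. Of 13 on chromosome 4, 2 were called in all 6 lists, 5 in more aged and 2 in more young lists. Among these, Cd52, a lymphocyte surface glycoprotein gene, was called at 87.5, 81.0 and 51.4 in the aged lists and at 81.5 in young list 3 alone. Housekeeping genes were called in all 6 lists in 9 of 10 cases on chromosome 10 and 6 of 9 on chromosome 4.

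Within 20 to 25 Mb of chromosome 10, 46 coding genes had 14 with more aged and 13 with more young lists. Ahi1, a cilium gene next to Myb, stood at 99.3, 98.1 and 98.1 in aged lists against 97.8, 73.1 and 98.6 in young lists. Hbs1l, a ribosome-rescue factor gene whose interval with Myb is known for erythroid enhancers, was called in all 6 lists, from the 8.5 to the 97.5 percentile. Rps12, a ribosomal protein gene, was also called in all 6, and the kinase gene Sgk1 and the pantetheinase gene Vnn1 in young list 3 only, at 37.6 and 21.8. Vnn3 was called in aged lists 1 and 3 at 44.1 and 94.8 and in young lists 1 and 2 at 65.0 and 73.1.

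All 15 Taar genes, trace amine receptors of the olfactory epithelium, lie in that same bin. Taar6 was called in the 3 aged lists at 82.5, 15.4 and 4.8 and in young list 3 at 75.5. Taar7d was called in aged lists 1 and 2 at 44.1 and 32.3, and Taar7e in young lists 1 and 2 at 65.0 and 42.7. These genes are close copies, so reads may be shared among them and the calls are uncertain.

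Within 90 to 95 Mb, 3 of 24 genes had more aged and 3 more young lists. Anks1b (chr10:89872915-90973300) was called in aged lists at 90.1, 68.3 and 88.2 and in young list 1 at 65.0. The nuclear receptor gene Nr2c1 was called in all but young list 2, and Amdhd1, a histidine breakdown enzyme gene, in all but aged list 3. At 85 to 90 Mb, 10 of 48 genes had more aged and 10 more young lists, and Hsp90b1 stood between the 97.3 and 99.7 percentile.

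Within 115 to 120 Mb, 6 of 37 genes had more aged and 6 more young lists. Lgr5, a receptor for R-spondins that marks intestinal stem cells (chr10:115450314-115587780), was called in aged lists at 91.8, 93.3 and 84.9 and in young list 3 at 89.3. Mdm2, the ubiquitin ligase that limits p53, was called in all 6 lists, at 94.0, 97.8 and 94.5 in aged lists against 99.0, 73.1 and 96.5 in young lists. Thap2, a zinc finger gene, was the strongest, between 99.0 and 99.9. Rab3ip, a vesicle transport factor gene, missed young list 2, and Cnot2, of the deadenylase complex, missed aged list 3.

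The immune genes of that bin had few calls. Ifng, the interferon gamma gene, was called in aged list 1 at 44.1 and in young lists 1 and 2 at 65.0 and 61.5. Il22, a cytokine gene with a close copy nearby, was called in young list 1 at 65.0. Lyz2, a lysozyme gene of myeloid cells, was called in aged lists 1 and 2 at 12.9 and 86.4 and in all young lists at 90.2, 88.8 and 77.5. Its copy Lyz1 was called in young list 2 at 42.7, and reads may be shared between the pair.

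In the 3 bins of chromosome 4, most genes were called in as many aged as young lists. At 30 to 35 Mb, 6 of 26 genes had more aged and 5 more young lists. Bach2, a repressor of lymphoid and myeloid choice, was called in every list, at 98.2, 91.5 and 75.8 in aged lists against 24.3, 42.7 and 86.3 in young lists. Gabrr2, a GABA receptor subunit gene, was called in young lists 1 and 3 at 45.8 and 51.0. Smim8 and the zinc finger gene Zfp292 were called in all but young list 2.

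At 50 to 55 Mb, 4 of 15 genes had more aged and 2 more young lists. Abca1 was called in all 6 lists, from 88.8 to 99.0. Smc2, a condensin subunit gene, and Fsd1l were called in all but young list 2. Olfr270, an odorant receptor gene, was called in young lists 1 and 2 at 65.0 and 73.1.

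At 95 to 100 Mb, 3 of 25 genes had more aged and 8 more young lists. Jun, of the AP-1 complex, was called in all 6 lists at 99.2, 97.6 and 97.9 in aged lists against 98.9, 80.3 and 97.9 in young lists. Nfia, a factor of the erythroid and granulocytic choice, was called in aged list 1 at 60.7 and in young lists 1 and 3 at 24.3 and 31.6. Alg6, an N-glycosylation enzyme gene, was the strongest, from 97.9 upward. Gm12695 was called in aged list 3 at 20.01 and in the young lists at 2.4, 42.7 and 64.9. Cyp2j12 was called in aged lists 1 and 3 and Cyp2j13 in young lists 2 and 3. Both belong to a cluster of close copies of a fatty acid epoxygenase gene, and their calls are uncertain.

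**Figure D5:**
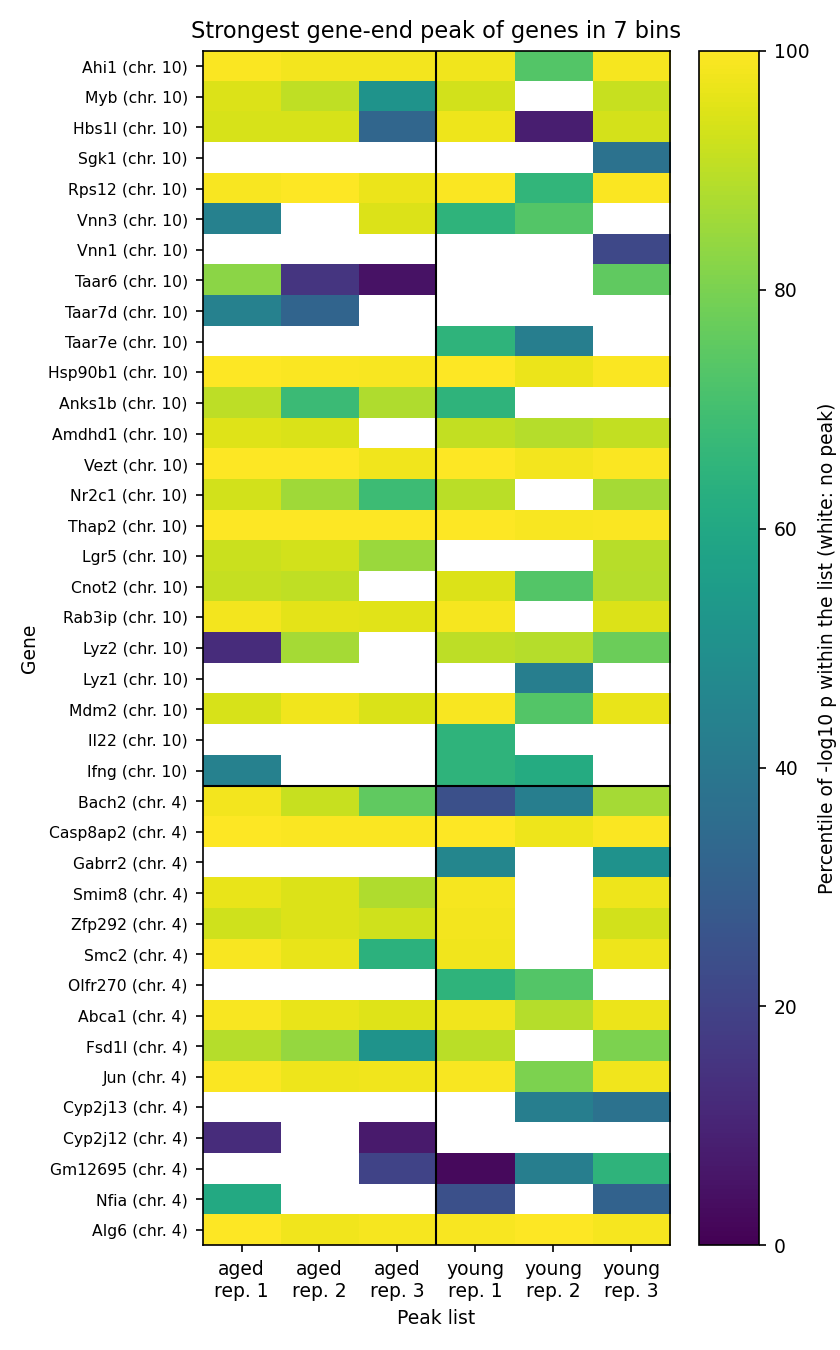
Within-list percentile of the strongest peak at the ends of 39 genes named from the bins without overlap and the gene lists (rows) in the 6 samples (columns), blank where no peak was called. Most rows are filled in both ages, and several are blank in young list 2 alone.

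Regions called in all 3 lists of 1 age and none of the other were rare on both chromosomes. On chromosome 10, 30 of 45148 merged regions were called in the aged lists only (0.0664%) and 21 in the young lists only (0.0465%). On chromosome 4 these were 28 (0.0539%) and 32 (0.0616%) of 51959. Over all autosomes the shares were 0.0517% for aged and 0.0619% for young lists. These counts depend on every list: with any 1 list left out, aged-only regions numbered 35 to 394 on chromosome 10 and 34 to 405 on chromosome 4, both most without aged list 3. Young-only regions numbered 26 to 513 and 34 to 592, both most without young list 3.

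The strongest aged-only region of chromosome 10, by its lowest percentile, lay at the end of Lgr5 (chr10:115587304-115587715), at 82.0, 65.8 and 84.9. The next, chr10:22781486-22781831, lay 35432 bp from Tcf21, a mesenchymal transcription factor gene, at 91.9, 68.3 and 63.8. Another aged-only region lay at chr10:21689845-21690226, in the bin of Myb and 191958 bp from the annotated end of Sgk1, at 95.3, 62.5 and 51.4.

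The strongest young-only regions of chromosome 10 lay inside Tspear (chr10:77856429-77856865), at 65.0, 97.6 and 64.9, and inside Gatd3a (chr10:78164009-78164277), at 43.0, 61.5 and 69.8. A further one lay inside Prdm1 (chr10:44443009-44443339), the gene of the plasma cell factor Blimp-1, at 24.3, 73.1 and 59.6.

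On chromosome 4 the strongest aged-only region, chr4:153877048-153877521, lay 79716 bp from the nearest coding gene, at 71.6, 76.4 and 88.2. Others lay inside Hivep3, a zinc finger gene (chr4:119947539-119947970), at 60.7, 72.0 and 85.2, and at the end of Calb1, a calcium-binding protein gene (chr4:15881143-15881445), at 84.9, 84.8 and 51.4. Of the young-only regions, chr4:115709861-115710125 lay 27591 bp from Efcab14 at 93.5, 88.8 and 78.6, and chr4:55811346-55811945 lay 278871 bp from Klf4 at 82.7, 61.5 and 73.1. The region chr4:152491331-152491952, inside the cilium gene Nphp4, stood at 80.2, 73.1 and 80.1. Without a genome annotation of exons, these regions were placed by gene bounds only.

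By gene ends, 2 genes of chromosome 10 were called in the aged lists only and 3 in the young lists only, of 1001. On chromosome 4 these were 1 and 4 of 1328. The autosome-wide shares were 0.213% and 0.3%. The aged-only genes were Slc35d3, a nucleotide sugar transporter of platelet granules (44.1, 47.8 and 51.4), Syt1, a synaptic vesicle calcium sensor (24.8, 80.9 and 65.4), and on chromosome 4 Trp73, a p53 relative (60.3, 38.4 and 61.3).

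The young-only genes of chromosome 10 were Gm19668 (65.0, 73.1 and 57.1), the pacemaker channel gene Hcn2 (2.4, 61.5 and 28.7) and Tafa2, a secreted neural factor gene (92.1, 55.6 and 21.8). Those of chromosome 4 were Slc31a2, a copper transporter gene (92.9, 88.8 and 7.8), the transcription factor gene Dmrta2 (41.8, 55.6 and 57.2), Faah, which degrades anandamide (24.3, 22.3 and 84.0), and Morn1 (24.3, 61.5 and 29.0). These 10 genes are named after their values were seen. Leaving out any 1 list raised each of these small counts, up to 17 young-only gene ends on chromosome 10 and 18 on chromosome 4 without young list 3.

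Other properties of the peaks of each chromosome were set beside those of the other autosomes of the same list. They come from the same peaks as the shares by which the chromosomes were chosen, so they are given as a description, without a test.

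The gene-end share on chromosome 10 minus that on the other autosomes was -0.545, -0.770 and -0.788 percentage points in aged lists against -0.393, -0.102 and 0.660 in young lists, a difference of -0.756. On chromosome 4 the values were 0.995, 0.774 and 1.003 in aged lists against 0.410, 0.321 and -0.543 in young lists, a difference of 0.862. Peaks of chromosome 4 were thus more often at gene ends than those elsewhere in every list but young list 3, and those of chromosome 10 less often in every list but the same one. Without young list 3 the differences were -0.454 on chromosome 10 and 0.559 on chromosome 4.

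The share of strong peaks on chromosome 4 exceeded that on the other autosomes by 1.49, 2.32 and 0.555 points in aged lists and by 0.358, -0.0555 and -1.22 in young lists, a difference of 1.76. On chromosome 10 the difference was -1.97, with young list 3 far above the others at 5.22, and without young list 3 it was -0.382. With the same number of strongest peaks taken from each list, the differences were 0.735 and -1.42, and they no longer separated the ages. Median peak width differed by -2.33 bp on chromosome 10 (-0.833 bp without young list 3) and by 2 bp on chromosome 4. The median percentile of -log10 p on chromosome 10 minus that on the other autosomes was 0 in every aged list. In the young lists it was 15.6, 0 and 5.18, so the ages overlapped. The difference was -6.94, or -2.59 without young list 1 and -10.4 without young list 2. On chromosome 4 it was 0. With equal numbers of the strongest peaks, the width differences were -1.33 and 1.33 bp and the percentile differences -3.13 and 0.566.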

How the data were processed

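ATAC-seq peak lists of 3 aged and 3 young samples were used, 1 list per sample, with the age read from each title. The build was mm10 and the tools were Bowtie2, SAMtools, Picard and MACS2, per the submitters' processing notes. Their versions and parameters, any shift of reads for the transposase and the read depth are not given in the sources used here. The files have no header, and their columns were read by the layout that MACS2 writes. The deposited score (column 5) and the deposited fold enrichment ratio (column 7) were not used. The deposited -log10 p ranked peaks within a list, and the deposited -log10 q split them at 1.3. The lowest -log10 p was 2.00.

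Rows with the same start and end were counted once. A peak belongs to the 5 Mb bin of its midpoint. Shares are percentages of a list's distinct peaks on chromosomes 1 to 19. Gene ends are within 1 kb of either bound of 20661 coding genes (RefSeq, GRCm38.p6). Peaks of the 6 lists that overlap by at least 1 bp were merged. Intervals are 95% Wilson intervals of peak counts and cover counting error only. Computations used Python 3.11.15, numpy 2.4.6, pandas 2.3.3 and scipy 1.17.1. The code that counts bins without overlap was run on simulated lists. These differed only by counting error and planted differences, so the run does not cover the spread between real lists. Exact permutation tests of 8 peak properties were computed but are not given, since these properties come from the peaks that the choice of chromosomes used. The members, gene lists and bins were chosen with earlier results of these data known. Named genes were the listed genes in the bins without overlap and listed genes called in 3 lists of 1 age and at most 1 of the other. Among the bins without overlap, the 3 of largest contribution per chromosome were also used. In each of these, up to 3 genes were named by difference in lists, and the strongest called in all 6. To these came up to 4 regions per chromosome and direction. Other members of the gene lists, and the promoters shown, were named after their values were seen. Of 33 listed regulators of chromosome 4, 1 was not placed by the annotation.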

Additional observations from a re-analysis of the deposited data

How the results depend on the processing

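The direction of both chromosome differences was kept in every alternative tried. Over all results, counts of bins, regions and gene ends included, 48 of 176 alternative values moved by more than the spread between samples or, for counts, by over 1.5 times. Among gene-end peaks alone the chromosome 4 difference was -0.0419 percentage points, against -0.449. Bins without overlap fell from 4 to 1 on chromosome 10 and from 3 to 1 on chromosome 4 with strong peaks only, and to 2 and 1 with gene-end peaks only. With 1 sample left out at a time, the difference ran from 0.346 to 0.699 on chromosome 10 and from -0.568 to -0.221 on chromosome 4. The bins without overlap ran from 4 to 9 and from 3 to 12, where fewer lists also separate more easily. Regions called in 1 age only ran from 35 to 394 (aged) and 26 to 513 (young) on chromosome 10, and from 34 to 405 and 34 to 592 on chromosome 4. Gene ends ran from 4 to 10 and 4 to 17 on chromosome 10, and from 4 to 9 and 8 to 18 on chromosome 4. These leave-one-out counts were added after seeing the data, and the cause of the moves was not tested beyond the smaller number of lists that has to call a region. With equal numbers of the strongest peaks per list (110596), or by covered bases, the chromosome 10 difference was 0.474 and 0.461 and the ages overlapped, and that of chromosome 4 was -0.334, without overlap, and -0.377, with overlap. The chromosome 4 shares of strong peaks alone overlapped too, with a difference of -0.279.

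Samples with the same number share the number after "exp". Over the 502 bins the correlations of same-numbered aged and young lists were 0.424, -0.642 and -0.445. Those of differently numbered lists ran from -0.4999 to 0.649, highest for aged list 2 with young list 3, the lists richest in strong and gene-end peaks. Since lists also differ in such peaks, the correlations cannot decide whether the numbers mark pairs. The numbers were not taken as pairs. With 1 aged and 1 young list per number, a replicate block gives the same differences, 0.542 and -0.449, by arithmetic. It therefore shows nothing about the part of these numbers, although such values count among the alternatives that did not move. Depth limits all counts, since the reads behind each list are unknown and from 39.0% to 78.7% of a list's chromosome 10 peaks were in no other list.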

Other observations

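Clustered gene families of the 2 chromosomes held few peaks, counted within the genes and 1 kb around them, and given as values without a test. The 24 Mup genes of chromosome 4, major urinary proteins of the liver, held 11, 5 and 5 peaks in the aged and 4, 7 and 2 in the young lists. As shares of autosomal peaks these were 0.00469%, 0.00399% and 0.00398% against 0.00158%, 0.00289% and 0.00186%. The shares did not overlap but rest on few peaks, and those of every other family with members overlapped. The 11 Skint genes, relatives of a selector of epidermal T cells, held 64, 14 and 37 against 74, 105 and 10 peaks, fewest in aged list 2 and young list 3. The 68 Olfr genes of chromosome 10, odorant receptors, held from 0% (young list 3) to 0.0107% (young list 2) of a list's autosomal peaks. The 27 Zfp genes of chromosome 4, zinc finger factors, held 0.0566%, 0.0575% and 0.0478% against 0.0447%, 0.0408% and 0.0668%, with the ages overlapping. Members of these families are close copies, so peaks may be misplaced among them.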
